A study of Homo sapiens with 6 samples.

Results

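The probes described here are the miRNA gene probes of the array that lie outside the let-7 family and outside MIR21, MIR221, MIR181A1, MIR181B1, MIR24-1, MIR185 and MIR29B1. A probe was chosen by its symbol, MIR followed by a number, and by a detection p-value below 0.05 on at least 1 of the 6 arrays. Of 560 miRNA gene probes on the array, 544 remained after those names were left out, and 95 of them met the detection limit, 1 probe for each of 95 genes. The other 449 were above background on no array. Because the detection p-values chose these 95 probes, counts of probes above background are a description and carry no test.

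The arrays measured total RNA of MDA-MB-231, a basal-like, mesenchymal human breast cancer cell line, in 3 groups of 2 arrays each. Control cells are the first group. DICER1-sh and DROSHA-sh cells stably express a hairpin RNA that targets DICER1 and DROSHA respectively, and the study asked which mRNAs respond when miRNA synthesis is held down. The labels do not say whether control cells carried a hairpin, whether a stable line was a clone or a pool, or whether replicate arrays stem from independent cultures. A p-value therefore covers the spread between replicate arrays and no more, and that spread may be technical. Each array read RNA of a whole culture, so fewer cells with a transcript and less of it per cell cannot be told apart. Position on the chip ran with the group and cannot be told apart from it.

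A miRNA begins as a primary transcript, either a transcript of its own or an intron or exon of a host gene. The nuclear enzyme DROSHA with its partner DGCR8 cuts the hairpin out of that transcript, and the cytoplasmic enzyme DICER1 trims the hairpin to the mature miRNA, which pairs with mRNAs through its seed. A probe on an mRNA array cannot read the short mature miRNA. It can read longer transcripts from the miRNA gene or its surroundings. Whether a probe lies in the hairpin, beside it or in an exon of the host was not analysed here, so a value below is the level of whatever transcript the gene's 1 probe reads, and this limits every comparison with a host. Values are normalized log2 intensities, and probes of different genes are not set against each other.

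The mature sequences of the genes that carry the results follow, from RefSeq on GRCh38.p14, written 5′ to 3′ with the seed, bases 2 to 8, in capitals. Of the 95 members, 88 matched a mature sequence that could be used. The first set holds MIR130A, MIR564, MIR300 and MIR373, which name the set, with MIR302C, whose miRNA has the seed of miR-373-3p. Only the 5p strand of MIR130A was matched, so its 3p sequence and seed are not shown.
hsa-miR-130a-5p: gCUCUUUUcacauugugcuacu
hsa-miR-564: aGGCACGGugucagcaggc
hsa-miR-300: uAUACAAGggcagacucucucu
hsa-miR-373-3p: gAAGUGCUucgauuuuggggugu
hsa-miR-302c-3p: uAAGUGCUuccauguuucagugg
The MIR130A hairpin lies at chr11:57641198-57641286 (plus strand), inside the long non-coding RNA gene MIR130AHG. The MIR564 hairpin lies at chr3:44861888-44861981 (plus strand), inside the protein-coding gene KIF15. The hairpins of MIR300 at chr14:101041363-101041445 (plus strand) and of MIR373 at chr19:53788705-53788773 (plus strand) lie outside any host gene. The second set shows seeds shared between members, and miR-98-5p, which has the let-7 seed and is counted here because its gene does not carry the let-7 name.
hsa-miR-106a-5p: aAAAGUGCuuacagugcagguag
hsa-miR-519d-3p: cAAAGUGCcucccuuuagagug
hsa-miR-93-5p: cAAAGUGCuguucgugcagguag
hsa-miR-25-3p: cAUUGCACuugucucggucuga
hsa-miR-32-5p: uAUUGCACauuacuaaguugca
hsa-miR-98-5p: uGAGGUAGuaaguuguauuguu
The seed AAAGUGC is common to miR-106a-5p, miR-519d-3p and miR-93-5p, and AUUGCAC to miR-25-3p and miR-32-5p. The last set belongs to the genes whose detection followed a group.
hsa-miR-100-5p: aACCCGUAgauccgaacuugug
hsa-miR-335-5p: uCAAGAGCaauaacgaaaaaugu
hsa-miR-568: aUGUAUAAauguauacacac
hsa-miR-450a-5p: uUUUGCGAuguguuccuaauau

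Few miRNA gene probes were above background on these arrays. On single arrays between 41 and 47 members were above background, which was 7.54% to 8.64% of the 544 probes, where the detection limit by its definition passes 5% of the negative control probes. Of all 47319 probes on the array, 42.0% to 44.4% were above background on an array. Over the 6 arrays, 17.5% of the 544 miRNA gene probes passed at least once, against 53.9% of all probes.

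Of the 95 members, 41 were above background on 1 array only, 13 on 2, 10 on 3, 4 on 4, 10 on 5 and 17 on all 6. The share of the 544 probes seen on a single array, 7.54%, was close to the 7.19% of all probes, whereas 3.12% of them were seen on all 6 arrays against 35% of all probes. The single-array members were spread over the arrays, with 8 and 6 on the control arrays, 8 and 8 on the DICER1-sh arrays and 7 and 4 on the DROSHA-sh arrays. At a detection p-value below 0.01, 4 of the 41 single-array members and 16 of the 37 members seen on 2 to 5 arrays remained. At that limit 14 of the 17 members stayed above background on all 6 arrays, without MIR1909, MIR30B and MIR607. Just inside the limit lay MIR203A and MIR128-1, each with a lowest detection p-value of 0.04805, and MIR519D with 0.04935, and just outside lay MIR638 and MIR1537 with 0.05065 and MIR200A with 0.05195.

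**Figure D1:**
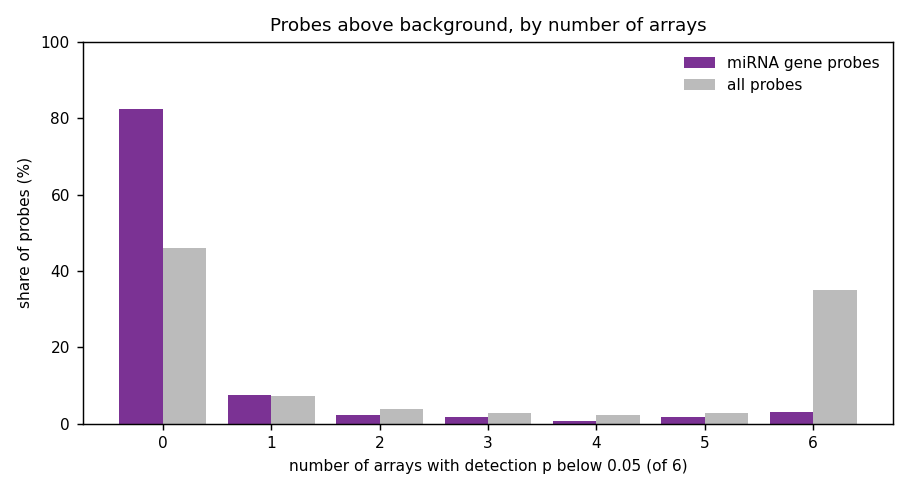
Share of probes (vertical axis, percent) by the number of arrays, of 6, on which the detection p-value was below 0.05 (horizontal axis), for the 544 miRNA gene probes and for all 47319 probes. The miRNA gene probes stand mainly at 0 arrays, and 3.12% of them reach all 6 against 35% of all probes.

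The number of members above background was similar in the groups. Both arrays of a group showed 27 members in control, 27 in DICER1-sh and 30 in DROSHA-sh, and at least 1 array showed 63, 61 and 57 members. In 4 members both arrays of 1 group and no other array were above background. These were MIR568 in control, MIR373 in DICER1-sh, and MIR100 and MIR335 in DROSHA-sh. Of the 544 probes, that is 0.184% in control, 0.184% in DICER1-sh and 0.368% in DROSHA-sh, beside 0.203%, 0.271% and 0.203% of all probes on the array. Each of the 4 met the detection limit only through the group where it was high. The differences, standard errors and ranges given for them below therefore describe these arrays and are no test. The reverse pattern, above background on all arrays but those of 1 group, was seen for MIR450A1, which was missing in DICER1-sh. That is 0.184% of the 544 probes, beside 0.169% of all probes.

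**Figure D2:**
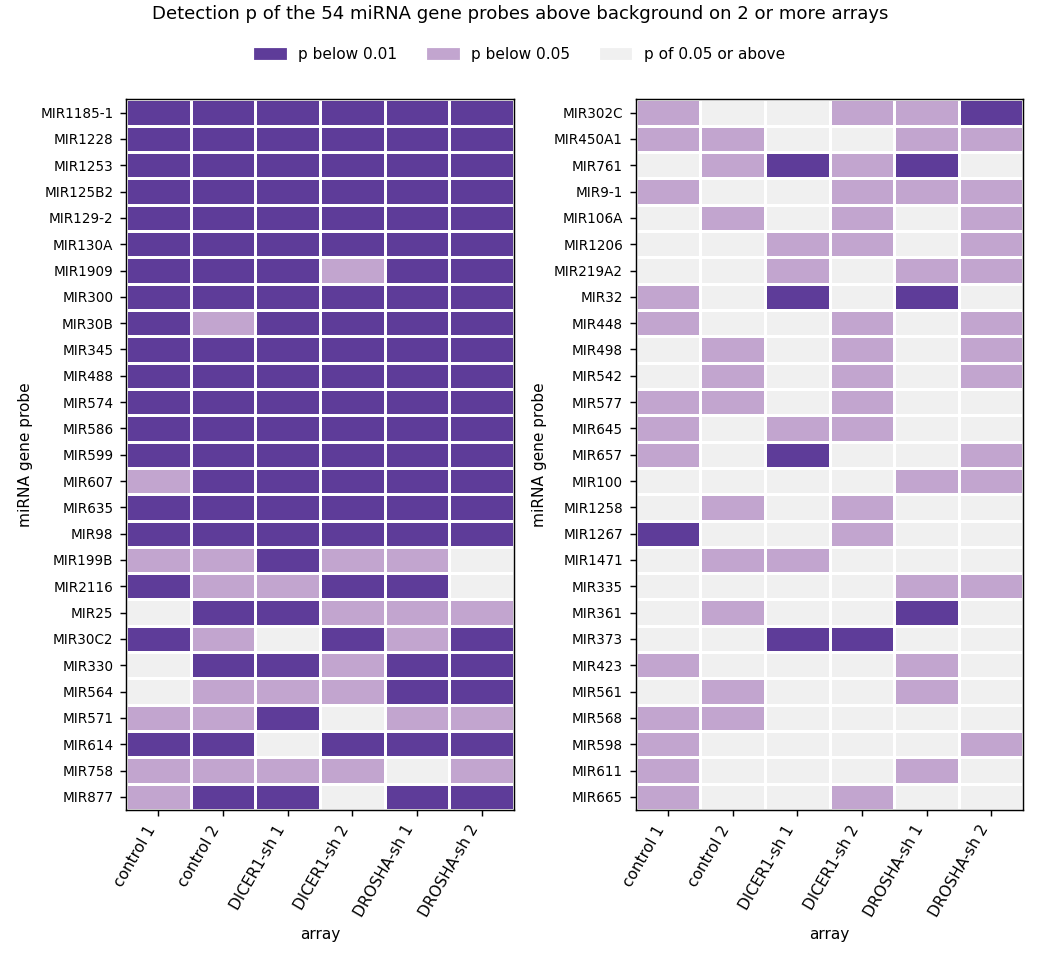
Detection p-value of the 54 members above background on 2 or more arrays, 1 row per probe and 1 column per array, dark for p below 0.01, light for p below 0.05 and grey otherwise. The first 17 rows are filled on all 6 arrays, and the rows of MIR100, MIR335, MIR373 and MIR568 are filled in 1 group only.

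MIR373 belongs to a cluster of miRNA genes known from embryonic stem cells, and its miRNA has been studied for its part in the migration of breast cancer cells. Its log2 intensities were 4.95 and 5.39 on the control arrays, 6.30 and 6.10 on the DICER1-sh arrays and 5.60 and 5.59 on the DROSHA-sh arrays. Both DICER1-sh arrays lay above the other 4, and no other array passed background. The measured difference of DICER1-sh from control was 1.03 with a standard error of 0.29, or at least 1.43-fold once the control values are set to the lowest level counted as detected. Leaving out 1 array moved the measured difference between 0.81 and 1.25. Other ways of processing moved it between 0.431 and 1.675, so its size depended on the processing. Its cluster neighbour MIR371A had 5.10 and 5.71 in control, 5.91 and 5.23 in DICER1-sh and 5.12 and 5.42 in DROSHA-sh, so its groups overlapped. MIR302C, from the other stem cell cluster and with the seed of miR-373-3p, had its highest value in DROSHA-sh, with 6.05 and 5.68 in control, 5.65 and 5.79 in DICER1-sh and 6.05 and 6.66 in DROSHA-sh.

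MIR568 lies in ZBTB20, which encodes a zinc finger repressor of transcription. It had log2 intensities of 6.07 and 5.82 in control, 5.0 and 5.16 in DICER1-sh and 5.34 and 5.50 in DROSHA-sh, so the control arrays were the highest. The measured difference was -0.86 with a standard error of 0.28 in DICER1-sh, and control stood at least 1.18-fold above it. The ZBTB20 probe, detected on all 6 arrays, had a difference of 0.01 (standard error 0.36) in the same comparison. MIR450A1, from an X-linked cluster with MIR503 and MIR542, had 5.78 and 5.93 in control, 5.07 and 5.49 in DICER1-sh and 5.85 and 5.78 in DROSHA-sh. Control stood at least 1.11-fold above DICER1-sh for MIR450A1, whereas the measured difference was -0.58 with a standard error of 0.29.

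MIR100 lies beside the left-out let-7 gene MIRLET7A2 in the long non-coding host MIR100HG. Its log2 intensities were 5.50 and 5.10 in control, 5.09 and 5.21 in DICER1-sh and 5.82 and 5.77 in DROSHA-sh, with both DROSHA-sh arrays above the rest. DROSHA-sh stood at least 1.08-fold above control. The MIR100HG probe itself had log2 intensities of 9.93 and 9.41 in control, 9.84 and 9.75 in DICER1-sh and 11.66 and 11.86 in DROSHA-sh, a difference of 2.09 with a standard error of 0.30 against 0.50 with 0.29 for the MIR100 probe. MIR335, whose miRNA has been described as a suppressor of metastasis in breast cancer cells, lies in the imprinted gene MEST. It had 5.42 and 5.18 in control, 5.26 and 5.58 in DICER1-sh and 5.90 and 5.83 in DROSHA-sh, and DROSHA-sh stood at least 1.13-fold above control. The MEST probe, detected on 3 arrays, had a difference of -0.50 (standard error 0.69) in DROSHA-sh. Differences of DROSHA-sh from control among the left-out genes ran from -0.16 for MIRLET7G to 3.52 for MIR21. Which genes remain here therefore depends on that comparison, and for the members it is described and not tested.

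The 17 members above background on all 6 arrays were MIR130A, MIR300, MIR1185-1, MIR1228, MIR1253, MIR125B2, MIR129-2, MIR1909, MIR30B, MIR345, MIR488, MIR574, MIR586, MIR599, MIR607, MIR635 and MIR98. Of these, 9 lay in a host gene on the same strand, 4 in a gene whose strand relation was not given and 4 outside any gene. In control and DICER1-sh their spread between arrays of the same group was as large as most differences between groups. The DROSHA-sh arrays lay closer together. The median difference between the 2 arrays of a group was 0.55 in control, 0.48 in DICER1-sh and 0.11 in DROSHA-sh, close to 0.55, 0.39 and 0.13 for all 16563 probes above background on all 6 arrays. Control 2 was above control 1 in 12 of the 17 and DICER1-sh 1 above DICER1-sh 2 in 12, beside 52.6% and 54.4% of all such probes. Both held in 10 of the 17, 58.8% beside 41.4% of all such probes.

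MIR130A, whose miRNA has been studied in blood vessel growth and blood cell formation, had log2 intensities of 7.07 and 8.26 on the control arrays, 8.70 and 8.18 on the DICER1-sh arrays and 8.44 and 8.45 on the DROSHA-sh arrays. Control 1 lay below the other 5 arrays, and control 2 lay within the range of the DICER1-sh arrays. The mean was 0.78 above control in DICER1-sh and 0.78 above control in DROSHA-sh, each with a standard error of 0.42, and both share the control arrays. Without control 1 the differences were 0.18 and 0.19, and without control 2 they were 1.38 and 1.38.

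MIR98, a member of the let-7 seed family, lies in HUWE1, the gene of a ubiquitin ligase, next to the left-out MIRLET7F2. It had 6.68 and 8.25 in control, 8.44 and 7.36 in DICER1-sh and 7.93 and 7.79 in DROSHA-sh. The control arrays differed by 1.57, the widest gap of any member within control, and all DICER1-sh and DROSHA-sh values but 8.44 lay between them. The difference was 0.44 in DICER1-sh and 0.40 in DROSHA-sh, each with a standard error of 0.55, and without control 1 it turned to -0.35 and -0.39. MIR607, outside any gene, showed the same picture with 5.89 and 7.21 in control and 6.50 to 7.14 on the other 4 arrays, as did MIR635 with 6.15 and 7.21 in control and 6.46 to 6.87 elsewhere.

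MIR586 and MIR1228 varied less between the control arrays, whereas their DICER1-sh arrays differed by 0.55 and 0.74. MIR586, in SUPT3H, which encodes a subunit of a histone acetylation complex, had 9.11 and 8.94 in control, 8.15 and 8.70 in DICER1-sh and 9.28 and 9.18 in DROSHA-sh. Both DICER1-sh arrays were the lowest, at a difference of -0.60 with a standard error of 0.30 that ran from -0.88 to -0.33 when an array was left out. The SUPT3H probe did not follow, at 0.05 with a standard error of 0.36. MIR1228 had 9.14 and 9.06 in control, 8.48 and 9.22 in DICER1-sh and 9.15 and 9.33 in DROSHA-sh, a difference of 0.13 in DROSHA-sh with a standard error of 0.33. Its host LRP1, an endocytic receptor, has 1 probe on the array, which was above background on no array. MIR877 in ABCF1 is known as a mirtron, a short intron that becomes a miRNA hairpin by splicing without DROSHA. It was above background on 5 arrays and had a difference of 0.38 with a standard error of 0.40 in DROSHA-sh.

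MIR125B2 is a relative of the worm miRNA lin-4 and lies in the long non-coding host MIR99AHG. It had 6.68 and 6.87 in control, 7.05 and 6.40 in DICER1-sh and 6.78 and 6.62 in DROSHA-sh, a difference of -0.07 with a standard error of 0.32 in DROSHA-sh. The MIR99AHG probe was detected on 3 arrays and on neither control array, where it had 5.16 and 5.52. Its measured difference of 1.40 (standard error 0.39) in that comparison therefore depends on the background correction. MIR599 had 6.55 and 6.81 in control, 7.42 and 7.10 in DICER1-sh and 7.06 and 6.79 in DROSHA-sh, so the DICER1-sh arrays were the highest. MIR1909, in the RNA exonuclease gene REXO1, had 6.65 and 6.62 in control, 6.95 and 6.03 in DICER1-sh and 6.88 and 7.42 in DROSHA-sh. The other 6 of the 17 outside the imprinted cluster, MIR1253, MIR129-2, MIR30B, MIR345, MIR488 and MIR574, had differences between -0.36 and 0.38 in DICER1-sh and between -0.22 and 0.30 in DROSHA-sh, with standard errors of 0.27 to 0.33.

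**Figure D3:**
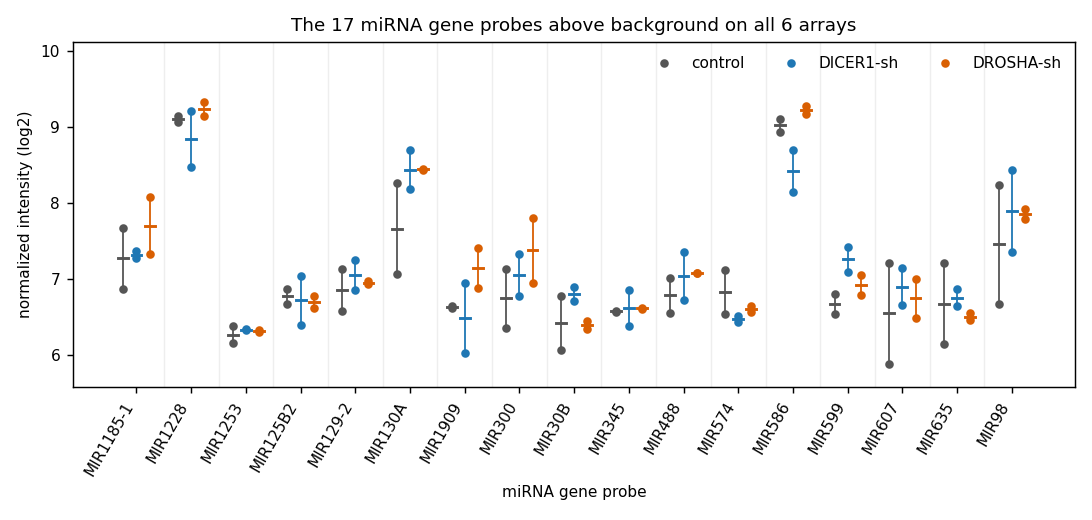
Normalized log2 intensity (vertical axis) of the 17 members above background on all 6 arrays, with 1 point per array, a line joining the 2 arrays of a group and a bar at their mean. MIR130A and MIR98 show wide gaps between the control arrays, and MIR586 has both DICER1-sh arrays below the other 4.

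Of 37 probes for the imprinted miRNA cluster of chromosome 14, 6 were members, 16.2% beside 17.5% of the 544 probes, with MIR300 and MIR1185-1 above background on all 6 arrays, MIR758 on 5, and MIR369, MIR376C and MIR889 on 1 each. MIR300 had 6.36 and 7.13 in control, 7.34 and 6.78 in DICER1-sh and 7.81 and 6.95 in DROSHA-sh. MIR1185-1 had 6.88 and 7.68 in control, 7.28 and 7.37 in DICER1-sh and 8.08 and 7.33 in DROSHA-sh. In both genes the groups overlapped, with the highest value on DROSHA-sh 1 and the lowest on control 1. The difference of DROSHA-sh from control was 0.63 with a standard error of 0.42 for MIR300, or 0.20 without DROSHA-sh 1, and 0.43 with 0.39 for MIR1185-1. MEG3 and DLK1, the best known genes of that domain, were above background on no array. MEG8 of the same domain was above background on at least 1 array but not on all 6, and RTL1 has no probe. The normalized intensity of MEG8 before log2 was 36.0 and 37.9 at the lowest and highest in control. It was 61.6 and 89.3 in DICER1-sh and 35.0 and 46.4 in DROSHA-sh.

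The primate-specific cluster of chromosome 19, known from the placenta, had 4 members among 18 probes, 22.2% beside 17.5% of the 544 probes. They were MIR498 on 3 arrays and MIR1323, MIR518E and MIR519D on 1 each. The X-linked cluster of MIR503 had 4 members among 6 probes, 66.7% beside the same 17.5%. They were MIR450A1 on 4 arrays, MIR542 on 3, and MIR450A2 and MIR503 on 1 each. These shares were not tested. MIR25, from the cluster inside the replication helicase gene MCM7, was above background on 5 arrays, whereas MIR93 of the same cluster was seen on 1. MIR106A was seen on 3 arrays and its neighbour MIR18B on 1. Members of 1 cluster can share a primary transcript and are not independent of each other. Of the neighbours of the left-out genes, MIR100 and MIR98 are members. The probes of MIR222, MIR23B, MIR27B, MIR29A, MIR125A, MIR99A and MIR99B were above background on no array.

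Members came in similar shares from within host genes and from outside them. A same-strand host, a gene whose span in the RefSeq table holds the miRNA gene on its strand, was found for 327 of the 544 probes, and 59 of these, 18%, were members. Of 121 probes outside any gene 23 were members, 19%. Of 75 inside a gene whose strand relation was not given, 10 were members, 13.3%, and of 21 opposite to a gene 3 were members, 14.3%. Protein-coding hosts gave 43 members of 237 probes, 18.1%, and long non-coding hosts 16 of 90, 17.8%. No test was made of these shares, which rest on the detection p-values that chose the members.

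By group, the hosted members above background on both arrays numbered 15 in control, 15 in DICER1-sh and 19 in DROSHA-sh, and on at least 1 array 43, 36 and 36. The intergenic members above background on both arrays numbered 6 in each group, and on at least 1 array 11, 17 and 11. Members inside a gene of ungiven strand relation gave 5 in each group on both arrays. Of the 59 hosted members, 46 had a host with a probe on the array. For 37 of them the host was above background on at least 1 array, and for 30 on all 6. Of the 18 single-array members with a host probe, 11 had a host above background on all 6 arrays, although the miRNA probe was seen once.

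Where both were measured, the miRNA probe and the probe of its host often differed in sign. In 9 pairs the host was above background on all 6 arrays and the member on at least 5. The signs of the difference from control were alike in 5 of the 9 pairs in DICER1-sh and in 2 of the 9 in DROSHA-sh. These are MIR1909 in REXO1, MIR574 in FAM114A1, MIR586 in SUPT3H, MIR635 in WIPI1, MIR98 in HUWE1, MIR25 in MCM7, MIR330 in EML2, MIR564 in KIF15 and MIR877 in ABCF1. Most of these differences were smaller than their standard errors, so the signs alone carry little.

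MIR564 showed the widest separation from its host among these pairs in DROSHA-sh. Its log2 intensities were 5.35 and 6.08 in control, 6.07 and 5.96 in DICER1-sh and 6.28 and 6.52 in DROSHA-sh, with both DROSHA-sh arrays the highest. The probe was below background on control 1 alone. The DROSHA-sh difference was 0.68 with a standard error of 0.33, and 0.32 without control 1. KIF15, the gene of a mitotic kinesin, had 10.73 and 9.53 in control, 9.74 and 10.47 in DICER1-sh and 9.44 and 9.43 in DROSHA-sh, a difference of -0.69 with a standard error of 0.44. Control 1 was the highest of its 6 arrays and control 2 lay close to the DROSHA-sh arrays. In DICER1-sh the MIR564 difference of 0.30 turned to -0.06 without control 1.

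**Figure D4:**
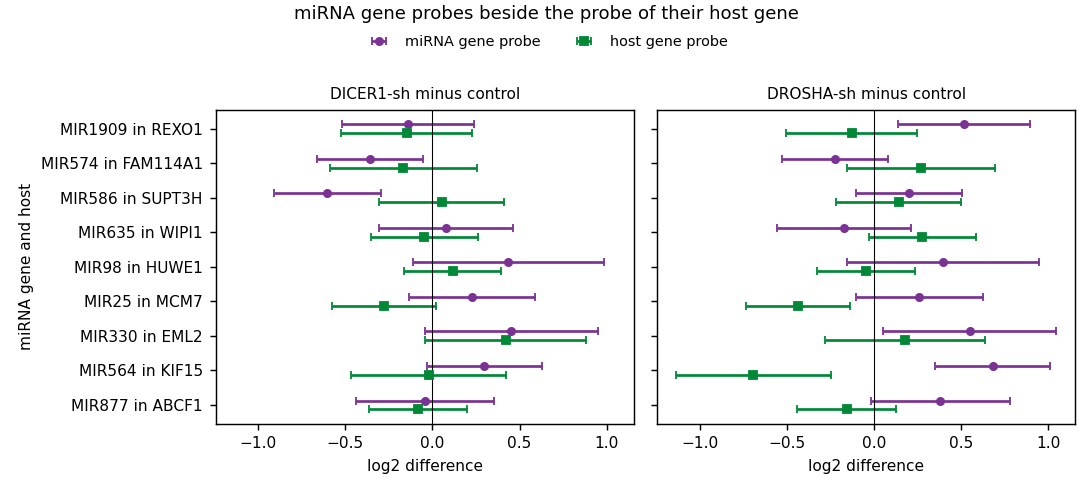
Log2 difference from control (horizontal axis) of the miRNA gene probe (circles) and of the probe of its same-strand host gene (squares) for the 9 pairs measured on at least 5 and on all 6 arrays, in DICER1-sh and in DROSHA-sh. Bars are standard errors of the fit with 2 arrays per group, and MIR564 in KIF15 shows 0.68 beside -0.69 in DROSHA-sh.

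Across the comparison of DICER1-sh with control, no member passed the test. In limma's fit over 25494 probes, 0 of the 95 members had an adjusted p below 0.05, as had 0% of all probes, and the smallest adjusted p of a member was 0.960. At an unadjusted p below 0.05 stood 4 of the 95 members, MIR1321, MIR26B, MIR373 and MIR568, and 474 of the 25494 probes. Each of these 4 passed the detection limit only in the group where it was high, so their count rests on values that chose them and supports nothing. The median difference of the members was 0.08, with 56 of 95 above 0, beside a median of 0.00 over all probes tested. Measured values, those below background included, were compared with a limit of 1.5-fold. The measured mean was higher in 7, MIR1208, MIR130A, MIR1321, MIR373, MIR576, MIR761 and MIR766, which is 7.37% beside 5.14% of all probes. In 5 of these 7 neither control array was above background and no bound reached 1.5-fold, which leaves MIR130A and MIR761. MIR761 was not above background on control 1 and had a detection p-value of 0.0494 on control 2. Its difference therefore depends on the background correction too. The measured mean was lower in 4, MIR26B, MIR568, MIR586 and MIR614, 4.21% beside 6.34%. For MIR26B and MIR568 neither DICER1-sh array was above background. Control stood at least 1.18-fold above DICER1-sh for MIR568. The same calculation gave 1.41-fold for MIR26B, which is no lower bound because control 1 was not above background either. The groups did not overlap in 25 members, 26.3% beside 22.1%.

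These counts near the limit depended on single arrays. Without DICER1-sh 2 they came to 19 higher and 11 lower, without control 2 to 14 and 10, and without control 1 to 9 and 7. Of the 7 higher members, 4 were above background on a single array. MIR1321 had 4.94 and 4.79 in control and 5.70 and 5.72 in DICER1-sh, a measured difference of 0.84. With the control values raised to the lowest detected level it came to 1.01-fold. That is no lower bound, because a single DICER1-sh array was above background. MIR761, in the peptidase gene NRDC, had 5.04 and 5.75 in control, 6.42 and 5.91 in DICER1-sh and 6.19 and 5.51 in DROSHA-sh, with a difference of 0.77 and a standard error of 0.39. The NRDC probe stood at -0.14 with a standard error of 0.28.

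MIR614, inside GPRC5A, had the lowest value of this comparison and also the widest spread. Its log2 intensities were 8.15 and 6.88 in control, 5.20 and 7.73 in DICER1-sh and 6.34 and 6.72 in DROSHA-sh. The DICER1-sh arrays differed by 2.53, the largest gap between arrays of a group among all members, and enclosed the control 2 value. DICER1-sh 1 was not above background, so its value, this gap and the difference of -1.05 with a standard error of 0.77 depend on the background correction. Without DICER1-sh 1 the difference was 0.22. MIR30C2, also not above background on DICER1-sh 1, had 7.05 and 5.99 in control, 5.41 and 6.73 in DICER1-sh and 5.82 and 6.90 in DROSHA-sh. MIR26B, in the phosphatase gene CTDSP1, was above background on control 2 alone, with 5.60 and 6.80 in control, 5.48 and 4.90 in DICER1-sh and 5.30 and 5.27 in DROSHA-sh.

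**Figure D5:**
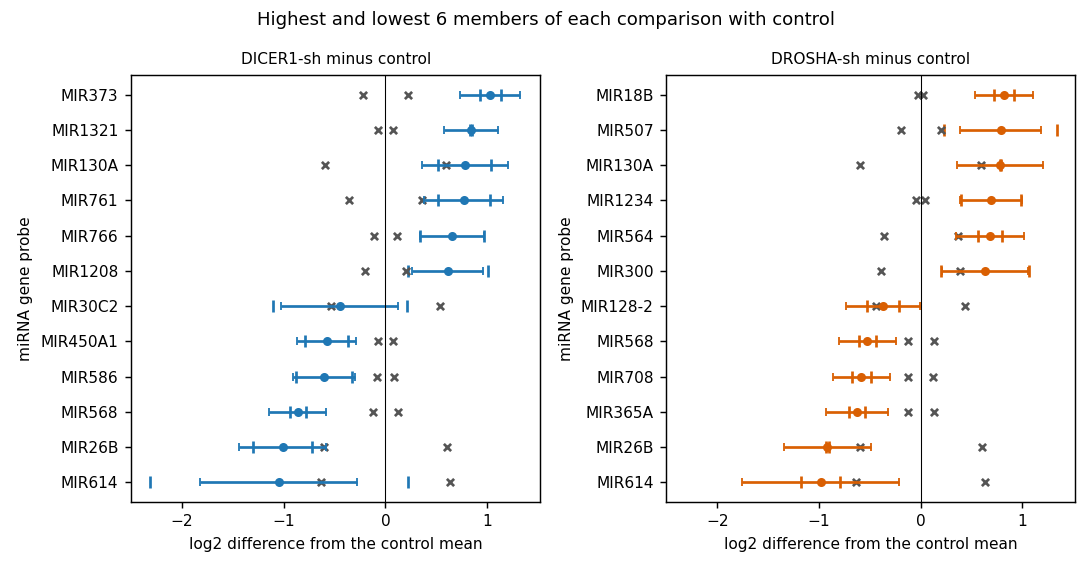
Log2 difference from the control mean (horizontal axis) for the 6 highest and 6 lowest members in DICER1-sh (first panel) and in DROSHA-sh (second panel). Circles with bars are the difference and its standard error, ticks the 2 arrays of the group and crosses the 2 control arrays, and MIR614 spans the widest range.

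In DROSHA-sh against control, values are given without a test for the reason stated above. The members' median difference was 0.11, with 57 of 95 above 0, beside a median of 0.00 over all probes, and 0% of all probes passed an adjusted p of 0.05 in limma. By measured values 6 members were past the 1.5-fold limit on the higher side, MIR1234, MIR130A, MIR18B, MIR300, MIR507 and MIR564, 6.32% beside 7.48% of all probes. Neither control array was above background for MIR1234, MIR18B and MIR507, and no bound reached 1.5-fold. On the lower side were MIR26B, MIR365A and MIR614, 3.16% beside 7.95%, and for MIR26B and MIR365A neither DROSHA-sh array was above background. The groups did not overlap in 32 members, 33.7% beside 36.9%. MIR18B, from the X-linked relative of the MIR17 cluster, had 4.87 and 4.92 in control, 4.77 and 5.15 in DICER1-sh and 5.81 and 5.61 in DROSHA-sh. Only DROSHA-sh 1 was above background for MIR18B, and the measured difference was 0.82. With the control values raised to the lowest detected level it came to 1.02-fold. That is no lower bound, because DROSHA-sh 2 was not above background. MIR507 had 4.77 and 5.16 in control and 6.30 and 5.20 in DROSHA-sh, and without DROSHA-sh 1 its difference of 0.78 was 0.23.

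Set directly against each other, DROSHA-sh and DICER1-sh differed by a median of 0.03 over the members and 0.00 over all probes, and 0.00392% of all probes passed an adjusted p of 0.05 in limma. By measured values 8 members were past the 1.5-fold limit with DROSHA-sh higher, MIR100, MIR1234, MIR18B, MIR1909, MIR302C, MIR361, MIR503 and MIR586, 8.42% beside 4.11% of all probes. In 5 of these 8 neither DICER1-sh array was above background and no bound reached 1.5-fold, which leaves MIR1909, MIR302C and MIR586. MIR302C was not above background on DICER1-sh 1. With DROSHA-sh lower were MIR1321, MIR373, MIR551A and MIR766, 4.21% beside 3.66%, none of them above background on a DROSHA-sh array. The groups did not overlap in 30 members, 31.6% beside 33.5%. MIR586 had the largest difference among members above background on all 6 arrays, 0.81 with a standard error of 0.30, and it lay between 0.53 and 1.08 when an array was left out. MIR503, whose miRNA belongs to the family that restrains the cell cycle, had 5.0 and 5.26 in control, 4.65 and 5.17 in DICER1-sh and 5.39 and 5.88 in DROSHA-sh. Its host MIR503HG, detected on all 6 arrays, had a difference of -0.35 (standard error 0.28) in this comparison.

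The genes that make and use miRNAs did not pass the test either. Of a list of 25, 22 were above background, 21 of them on all 6 arrays, and 0 passed an adjusted p of 0.05 in limma in any of the 3 comparisons. AGO4, LIN28A and LIN28B were above background on no array. DICER1 had log2 intensities of 10.55 and 9.36 in control, 8.41 and 8.66 in DICER1-sh and 10.36 and 10.27 in DROSHA-sh, a difference of -1.42 in DICER1-sh. DROSHA had 11.58 and 10.91 in control, 11.40 and 10.81 in DICER1-sh and 9.0 and 8.98 in DROSHA-sh. Its difference in DROSHA-sh was -2.25 with a standard error of 0.35. The other detected probe of each gene gave -1.72 for DICER1 in DICER1-sh and -2.05 for DROSHA in DROSHA-sh. For each of these probes the groups did not overlap in that comparison. DGCR8, the partner of DROSHA, stood at a difference of 1.15 with a standard error of 0.31 in DROSHA-sh and 0.02 in DICER1-sh. The list's median difference was -0.21 in DICER1-sh and -0.20 in DROSHA-sh.

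The label of the cells was checked by marker genes. VIM, CD44, AXL, CAV1, MSN, LGALS1 and TGFBI, of the mesenchymal basal-like state, were above background on all 6 arrays. The luminal markers ESR1, PGR, TFF1 and CDH1 were above background on none, while XBP1, KRT18 and KRT8 were on all 6. GATA3 and FOXA1, also luminal, were above background on at least 1 array but not on all 6. Of the leukocyte markers LYZ and CD14 were above background on all 6 arrays and PTPRC and CD3E on none, while 3 of 5 fibroblast and 1 of 6 embryonic or placental markers were above background on at least 1 array and 0 of either on all 6. Raw median intensity ran from 150.18 to 166.68 over the arrays.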

How the data were processed

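A set of 6 Illumina expression arrays was analysed, 2 for each of control, DICER1-sh and DROSHA-sh cells, grouped by the cell label. A deposited table gives unscaled mean bead intensity for 47319 probes, per the file headers. It also gives the detection p-value of every probe on every array, as the authors deposited it. Another deposited table, with intensity values the authors processed by a normalization not given in the sources used here, served as an alternative. The submitters' processing notes name GenomeStudio.

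The neqc function of limma (3.58.1, R 4.3.3) corrected the background by normexp through the detection p-values with an offset of 16, applied quantile normalization and took log2. Probes with a detection p-value below 0.05 on at least 1 array, 25494, were fitted with lmFit and eBayes, all 3 groups together, with Benjamini-Hochberg adjustment over all of them and a threshold of 0.05. The fit kept 3 residual degrees of freedom. It was tested on simulated data. The number of arrays limits the precision.

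Symbols were updated through Entrez numbers for 30073 of 30112 probes with 1 symbol. Of the other probes, 8 had several symbols and 17199 none. The RefSeq gene table of GRCh38.p14 gave hosts by overlap, and the brightest probe stood for a host. Clusters were miRNA genes within 10 kb of each other. An "at least" fold sets the brighter mean against a dimmer mean in which any value under an array's lowest detected level was raised to that level. It is a lower bound only where both arrays of the brighter group were above background. Genes were named by rule: the 4 naming genes, all members above background on all 6 arrays or in 1 group only, the 6 highest and lowest per comparison, clusters and seeds with 3 or more members, the genes at the detection limit, and hosts. Members named beyond it, such as MIR877 and MIR302C's comparison with MIR373, were chosen after their values were seen. Members, lists and the 1.5-fold limit were chosen with earlier results of these data known.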

Additional observations from a re-analysis of the deposited data

How the results depend on the processing

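No alternative called a member in DICER1-sh against control, where limma gave 0 members throughout. The number of members was 37 at a detection p-value below 0.01, 54 with at least 2 arrays above background and 17 with all 6. Of members measured at least 1.5-fold higher and lower, 7 and 4, no background correction left 0 and 0, an offset of 50 left 2 and 2, and the authors' deposited values with a floor of 16 gave 21 and 13. Requiring 2 arrays above background, or taking the brightest probe per gene under that filter, gave 3 higher. Leaving out 1 array gave 8 to 19 higher and 4 to 11 lower. Replicate numbers did not pair the arrays. Over 16563 probes, same-numbered deviations correlated at -0.684 between control and DICER1-sh. The values were -0.046 between control and DROSHA-sh and 0.029 between DICER1-sh and DROSHA-sh. Control and DICER1-sh arrays thus deviated crosswise, so their spread was not independent between these groups. The cause was not tested. The replicate block, like a crossed replicate block added after seeing the data, gave 0 calls. Each block held 1 array of every group and cannot change a group difference, so the counts of 7 higher and 4 lower were fixed beforehand. Of 45 members followed through every setting, leaving out 1 array turned the sign of 27 in DICER1-sh and 16 in DROSHA-sh against control. The other alternatives turned 2 and 1, although the blocks and the probe filters among them cannot turn a sign. Probes near the detection limit have at most a bound, and their differences depend on the background correction.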
